A study of Homo sapiens with 6 samples.

Results

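STC1 and STC2 encode the stanniocalcins, a pair of related secreted glycoprotein hormones. They were taken as the 2 genes of 60616 in the deposited tables whose identifiers map to these symbols, and both were among the 16719 genes with enough counts to be tested. The pair was chosen by its measured change in this comparison, in which STC1 was lower and STC2 higher in treated cells, so the levels and fold changes of both are given here as a description with no test. The RNA came from 12Z, an immortalized line of human endometriotic cells, wild type in genotype, in which 3 libraries came from cells treated for 12 h with frankincense extract, made from Boswellia resin and dissolved in DMSO, at 70 ug/mL, and 3 came from cells given the DMSO vehicle alone. All cells grew in medium with 10% serum that had been stripped with charcoal, a step that lowers steroid hormones. The series describes 1 cell line at 1 dose and 1 time, and its labels do not say that the replicates are separate cultures, so the p-values below measure the spread between these libraries, which may be technical.

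Stanniocalcins were found in bony fish as hormones that lower blood calcium. In mammals they act mainly near the cell that secretes them, and both inhibit the pappalysins, metalloproteinases that release insulin-like growth factors by cutting IGF binding proteins. STC2 is a known target of the PERK and ATF4 branch of the stress response of the endoplasmic reticulum and of hypoxia, while STC1 is known as a target of hypoxia-inducible factors and is expressed in endometrium and ovary.

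The genes share their architecture. In GENCODE 29 (GRCh38), both lie on the minus strand, and the main coding transcript of each has 4 exons, and exons 2 and 3 are 143 and 212 bases long in both genes. The outer exons differ, at 402 and 3126 bases in STC1 and 1461 and 3537 bases in STC2. The coding sequences are 744 and 909 bases long, for proteins of 247 and 302 amino acids, and 59.9% of 734 aligned bases were identical. The longest run of bases that the main transcripts share is 14, and no other annotated gene overlaps either one. The counting program can split a read between genes, which gives fractional counts, but every count of STC1 and STC2 was a whole number in all 6 libraries.

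The promoter of STC2 held matches to a hypoxia core and to the CCAAT box, but none to the composite of ATF4 and C/EBP. Stretches with the hypoxia core and the CCAAT box are shown. The window ran from 250 bases before to 50 bases after the RefSeq start site (GRCh38.p14), and it lies within exon 1 of the GENCODE model, which starts 1089 bases further upstream. GCGTG, a core of the sites bound by hypoxia-inducible factors, matched 3 times over both strands, beginning 235, 231 and 222 bases before the start site, with 2 of the matches overlapping. The letters CCAAT, the CCAAT box, matched once, 100 bases before it. Each stretch is given 5′ to 3′ on the gene's strand, with the matches in capitals.
STC2 chr5:173328628-173328657, minus strand, GCGTG matches: ctcatacaCACGCACGCaaacGCGTGgccg
STC2 chr5:173328497-173328526, minus strand, CCAAT match: ccggggtctcggATTGGtccagccgccggg
Of 35116 promoter windows of this length, 36.5% held GCGTG at least once, 4.30% held it 3 or more times over both strands, and 34.6% held CCAAT. The other hypoxia core, ACGTG (in 21.4% of windows), the composite of ATF4 and C/EBP, TGATGNAA (3.62%), the CREB core TGACG (24.6%), the AP-1 site TGANTCA (7.71%) and the full endoplasmic reticulum stress element of CCAAT, a 9-base spacer and CCACG (0.0769%) had 0 matches in the STC2 window. The core of the antioxidant element, TGACNNNGC (13.3%), matched once, within the 50 bases after the start site. No promoter of STC1 is shown.

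The libraries held 22615150 to 27615196 expected counts, and a count of 3 in 1 library was worth 0.109 to 0.133 CPM. Frankincense replicate 3 stood apart from its group: a chi-square of counts per degree of freedom was 12.9 and 11.2 against frankincense replicates 1 and 2, and 3.65 to 4.18 for the other pairs within groups. Of 10 epithelial markers 8 reached 1 TPM in vehicle, while CDH1, E-cadherin, stood at 0.133 ± 0.085 TPM and the basal keratin KRT5 was at 0. All 10 stromal or mesenchymal markers reached it, with a summed level of 4394 to 4516 TPM in vehicle and 3131 to 3396 TPM after treatment, against 1612 to 1648 and 1382 to 1435 TPM for the epithelial ones. Of 8 endothelial and 10 immune markers 1 and 2 reached 1 TPM, with sums of 53.5 to 55.8 and 30.9 to 34.2 TPM in vehicle and 36.6 to 38.3 and 35.5 to 64.2 TPM after treatment, and the defining genes CDH5, CD3E and MS4A1 were at 0 in every library. The part of these shifts in the results below was not tested.

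STC1 (ENSG00000159167, GRCh38 chromosome 8 from 23841915 to 23854807) was expressed at a low level in vehicle cells, and few of its reads were left after frankincense. Its level in TPM, which is scaled per length and can be set beside that of another gene, was 4.12, 4.30 and 4.52 in vehicle replicates 1 to 3 and 0.07, 0.22 and 0.20 in frankincense replicates 1 to 3. Every treated library lay far below every vehicle library. The counts behind these levels were 282, 357 and 355 in vehicle and 5, 14 and 12 after treatment. The group sums were 994 reads and 31 reads, the latter with an exact 95% Poisson interval of 21.1 to 44.0 that covers counting error only. The intervals of the smallest and largest treated counts, 1.62 to 11.7 for 5 reads and 7.65 to 23.5 for 14 reads, overlap. Whether the treated libraries differ in STC1 was not tested. In the fit across all genes the log2 fold change of STC1 was -4.97 ± 0.19 (SE), a 31.4-fold lower level, and 6 of the 16719 tested genes fell further. Between 33.1% and 34.4% of the tested genes lay below STC1 in the vehicle libraries, and between 0.514% and 2.66% in the treated ones.

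STC2 (ENSG00000113739, GRCh38 chromosome 5 from 173314713 to 173329503) was the more abundant stanniocalcin in vehicle cells and was higher in every treated library. Its level was 18.6, 18.3 and 20.3 TPM in vehicle replicates 1 to 3 and 107.9, 118.9 and 162.7 TPM in frankincense replicates 1 to 3. The groups did not overlap. In TPM the treated libraries were more spread out, at 129.9 ± 28.99 TPM (SD, n = 3) against 19.0 ± 1.06 TPM. The SD was 22.3% of the mean after treatment and 5.59% in vehicle in TPM, against 7.41% and 5.37% in CPM. Its counts were 1621, 2118 and 2083 in vehicle and 8771, 8301 and 9526 after treatment. The log2 fold change from counts was 2.21 ± 0.068 (SE), a 4.62-fold higher level, and 102 tested genes rose further. STC2 stood above 63.3% to 64.9% of the tested genes in the vehicle libraries and above 91.8% to 94.7% in the treated ones. As background to both genes, 67.5% of all tested genes had groups that do not overlap, 62.9% were called at an adjusted p under 0.05, and 5.14% and 7.11% were called and rose or fell at least 2-fold.

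**Figure D1:**
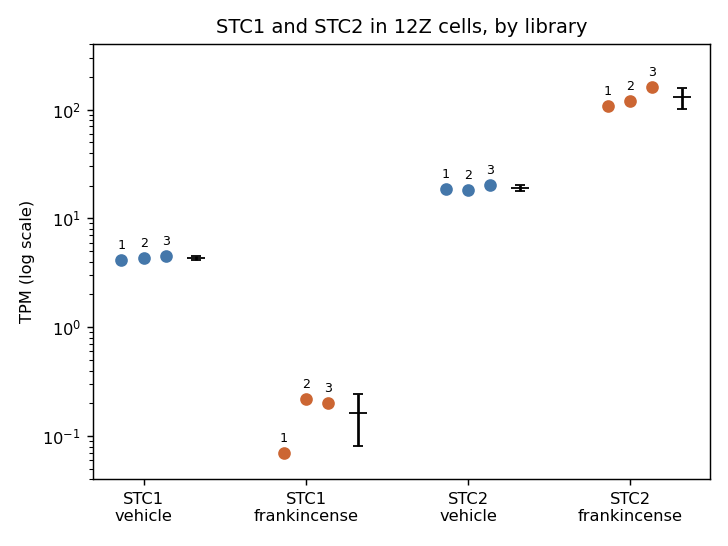
TPM (log axis) of STC1 and STC2 in each of the 6 libraries, numbered by replicate, with the mean and SD of 3 libraries beside each group in black. STC1 sits between 4.12 and 4.52 TPM in vehicle and at or below 0.22 after frankincense, while STC2 moves from at most 20.3 to at least 107.9 TPM.

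Because the genes moved in opposite directions, the make-up of the stanniocalcin RNA changed more than either level. STC2 TPM exceeded STC1 TPM by factors of 4.51, 4.25 and 4.48 in the vehicle libraries and of 1542, 541 and 814 in the treated ones. The vehicle ratios were nearly equal, and the wide range of the treated ratios rests on the few STC1 reads. STC1 made up 18.5% ± 0.49 of the summed stanniocalcin TPM in vehicle and 0.124% ± 0.060 after treatment. The sum itself went from 23.3 ± 1.23 to 130.01 ± 29.04 TPM. On the log2 scale the ratio of STC1 to STC2 moved by -7.64, from -2.14 ± 0.046 to -9.78 ± 0.76 (SD, n = 3). These are bulk RNA values, in which fewer expressing cells and less RNA per cell cannot be told apart.

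The transcripts assigned to STC2 were shorter after treatment. RSEM, the program that estimated the counts, reports for each gene the mean length of its transcripts weighted by their estimated abundance. For STC2 this was 4891, 5216 and 5014 bases in vehicle replicates 1 to 3 and 4494, 4162 and 3763 bases in frankincense replicates 1 to 3. Every treated value was below every vehicle value, a property that 10.2% of the tested genes shared, and 3.03% of them had a lower ratio of treated to vehicle length than STC2. GENCODE 29 lists 5 transcripts of STC2, the main one of 5353 bases and the other 4 of 473 to 616 bases, 1 of them a retained intron and 1 a processed transcript. The deposited gene tables do not name transcripts, so it was not tested which models took the reads. For STC1, which has 2 coding transcripts of 3883 and 1748 bases in GENCODE 29, the length was 3868 bases in 5 libraries and 3783 in vehicle replicate 2. The value of 3868 matches neither of these models, so the annotation behind the deposited lengths differs from GENCODE 29, at least for STC1, and the STC2 models listed may not be those that were counted.

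Length also enters the TPM of STC2. Its mean log2 TPM changed by 2.75, of which 2.21 came from counts, 0.30 from the shorter effective length and 0.24 from the scale of the libraries. For STC1 the corresponding parts of a log2 TPM change of -4.89 were -5.12, -0.011 and 0.24. Frankincense replicate 3 had the highest STC2 TPM and the shortest STC2 length, and its log2 CPM for STC2 was 0.18 above the mean of frankincense replicates 1 and 2. This is the library that stood apart over all genes. Without it the log2 fold changes were 2.16 for STC2 and -5.09 for STC1.

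**Figure D2:**
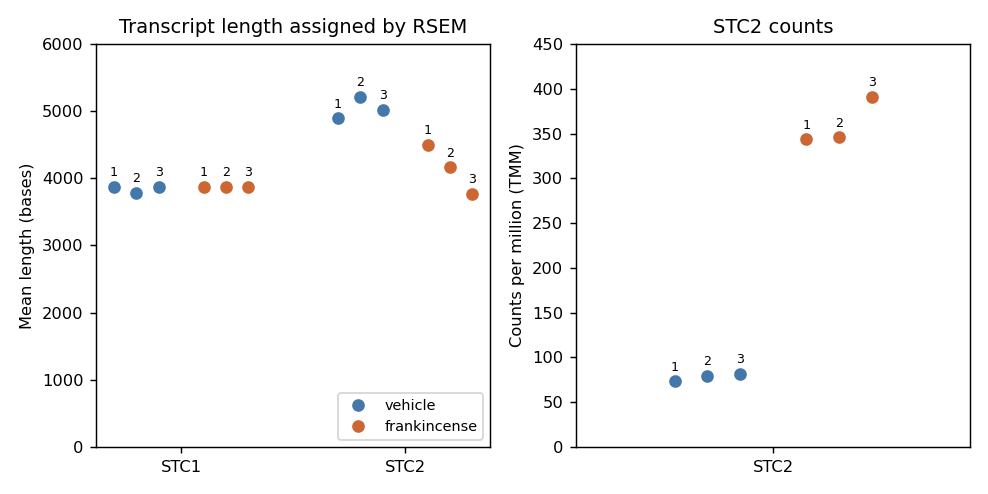
Left, mean transcript length in bases that RSEM assigned to STC1 and STC2 in each library, numbered by replicate. Right, STC2 CPM after TMM scaling, which rise in all treated libraries, while the assigned STC2 length falls from at least 4891 to at most 4494 bases.

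To place the pair among its pathways, lists of genes were read from the same fit, in which the quasi-likelihood test of edgeR was adjusted over all tested genes by the Benjamini-Hochberg method. The pair was chosen by its own change, so where it lies beside the genes of a list is a description with no test. The lists were written with earlier results of these data known. Of all tested genes 31.9% were called higher and 31% lower, with a median log2 change of -0.0016. When log2(TPM + 1) was tested in place of counts, 58.6% of them were called, with 7326 (43.8%) higher and 2474 (14.8%) lower, against 5332 and 5177 from counts, and the median of all genes moved by 0.20. With mitochondrial genes left out of the TPM scaling, 5143 genes were called higher and 3778 lower, and the median moved by 0.054. Splits that change on the TPM scale are given beside the counts, and list medians refer to the count scale.

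The PERK and ATF4 pathway senses unfolded protein and amino acid shortage and is known to raise STC2, a link that was not tested here. Of its 29 tested genes 21 were called higher and 2 lower, or 25 and 0 on the TPM scale. The TPM split was 22 and 0 without mitochondrial genes. The median log2 change from counts was 1.15. EIF2AK3, which encodes PERK itself, had 7.32, 5.48 and 7.01 TPM in vehicle and 16.9, 17.4 and 19.3 TPM after treatment, a log2 fold change of 1.32 ± 0.15 (adjusted p = 6.2e-05). ATF4, the transcription factor at the centre of the pathway and mainly controlled through translation, rose by 0.50 ± 0.074 (adjusted p = 4e-05). The 3 members with the smallest adjusted p were the pseudokinase TRIB3, which rose by 3.09 ± 0.062, from 24.7 ± 1.32 to 248 ± 13.0 TPM, the cytokine GDF15, which rose by 3.11 ± 0.069, and SLC3A2, a subunit shared by several amino acid transporters, which rose by 2.93 ± 0.069 (adjusted p = 1.2e-13, 2.6e-13 and 3.3e-13). The change of STC2 was exceeded by 7 of the 29, while STC1 lay below all 29. The lower calls were those of other kinases of the same translation factor, EIF2AK2, activated by double-stranded RNA, at -0.41 ± 0.050 (adjusted p = 5.8e-06), and EIF2AK4, which senses uncharged tRNA, at -0.15 ± 0.061 (adjusted p = 0.0477). Both turned positive on the TPM scale, where EIF2AK2 was called higher at 0.34 (adjusted p = 0.011) and EIF2AK4 was at 0.061 (adjusted p = 0.531). The call of EIF2AK4 was lost with library size scaling, no filter and DESeq2 (adjusted p = 0.344, 0.0684 and 0.117), and it was lost without vehicle replicate 2 or 3 or frankincense replicate 1 or 2 (adjusted p from 0.0528 to 0.232), which left 1 lower call without vehicle replicate 3 or frankincense replicate 2.

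Genes of the hypoxia-inducible factor pathway, a known activator of both stanniocalcins, went both ways. Of 34 tested, 9 were called higher and 17 lower, or 14 and 10 on the TPM scale and 9 and 13 there without mitochondrial genes. The list median was -0.24. STC1 lay below all 34 and STC2 above all 34. VEGFA, the angiogenic growth factor and a target of ATF4 as well, had 72.3, 73.8 and 68.7 TPM in vehicle and 220, 214 and 256 TPM after treatment, a log2 fold change of 1.47 ± 0.061 (adjusted p = 7.4e-11). HK2, a hexokinase, rose by 0.65 ± 0.051 and EPAS1, which encodes HIF-2-alpha, by 0.64 ± 0.056 (adjusted p = 5.2e-08 and 1.5e-07). The falling members included LDHA, lactate dehydrogenase A, with 582, 599 and 645 TPM in vehicle and 246, 261 and 257 TPM after treatment (-1.49 ± 0.064, adjusted p = 1.1e-10). NDRG1, a stress-responsive gene, fell by 1.34 ± 0.068 and PPFIA4, a liprin scaffold, by 1.44 ± 0.081 (adjusted p = 9.5e-10 and 1.6e-09). HIF1A, which encodes HIF-1-alpha and is regulated mainly through protein stability, was at 0.24 ± 0.082 (adjusted p = 0.0214), a call lost without vehicle replicate 1 or 2 (adjusted p = 0.0628 and 0.107). CA9, a carbonic anhydrase widely used as a hypoxia marker, was at -1.45 ± 0.42 (adjusted p = 0.00788), but vehicle replicate 1 held 1.58 TPM against 0.44 and 0.56 in the other vehicle libraries, and without it the log2 fold change was -1.10 with an adjusted p of 0.057. The CA9 call was also lost with all libraries in DESeq2 and on the TPM scale with and without mitochondrial genes (adjusted p = 0.0579, 0.101 and 0.0731).

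**Figure D3:**
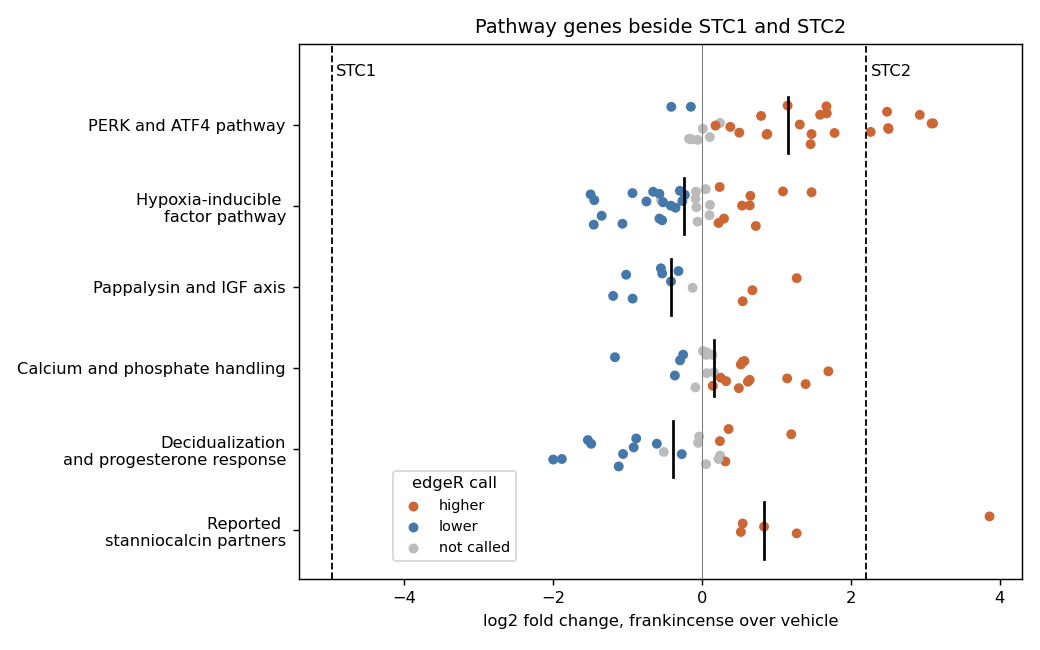
Each point is the log2 fold change (frankincense over vehicle) of 1 tested gene of a pathway list, coloured by its edgeR call, with a black bar at the list median; vertical jitter carries no value. Dashed lines mark STC1 at -4.97, left of every listed gene, and STC2 at 2.21, passed by 7 genes of the PERK and ATF4 list and by HMOX1 among the partners. Both members were chosen by their change.

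The extracellular targets of the stanniocalcins were partly expressed in these cells. PAPPA, the pappalysin that cuts IGFBP4, had 1.03, 0.95 and 1.53 TPM in vehicle and 3.46, 3.02 and 3.67 TPM after treatment (1.27 ± 0.12, adjusted p = 3e-06). As for 67.5% of all tested genes, the groups of PAPPA did not overlap. Its paralogue PAPPA2 had 0 counts in 5 libraries and 5 in frankincense replicate 3 and was not tested. Of 11 tested genes of the pappalysin and IGF axis, 3 were called higher and 7 lower, or 3 and 3 on the TPM scale. Leaving out mitochondrial genes made the TPM split 3 and 6. The list median was -0.41. IGFBP4, the main pappalysin substrate, had 96.0, 96.6 and 104 TPM in vehicle and 51.4, 49.1 and 53.1 TPM after treatment, a fall of 1.19 ± 0.051 on the log2 scale (adjusted p = 1.1e-10). The substrate IGFBP5 was scarce, at 0.823 ± 0.12 TPM in vehicle, and fell by 0.93 ± 0.18 (adjusted p = 0.00034, and 0.114 on the TPM scale). IGFBP7 fell by 1.02 ± 0.052 and IGF1R, the receptor through which released IGF acts, by 0.55 ± 0.053 (adjusted p = 5.6e-10 and 5.1e-07, and 0.0648 for IGF1R on the TPM scale). IRS2, an adaptor of that receptor, rose by 0.68 ± 0.061 (adjusted p = 2e-07). Another such adaptor, IRS1, fell by 0.31 ± 0.075 from counts (adjusted p = 0.00225), at 2.37 ± 0.085 and 2.32 ± 0.14 TPM. The ligand gene IGF1 had 0 counts in all libraries, and IGF2 had at most 7.41 in any library.

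Molecules that have been tied to stanniocalcin action inside or on the cell were read as a list, written with earlier results known. Of its 6 genes 5 were tested and all 5 were called higher, against 31.9% of all tested genes. Besides PAPPA these were IGF2R, the receptor for mannose 6-phosphate and IGF2, at 0.55 ± 0.081, STIM1, the calcium sensor of the endoplasmic reticulum that STC2 is reported to restrain, at 0.52 ± 0.072, and UCP2, a mitochondrial carrier that STC1 is reported to induce, at 0.84 ± 0.076 (adjusted p = 6.4e-05, 2e-05 and 2.6e-07). UCP2 stood at 20.5, 21.4 and 23.9 TPM in vehicle and 48.5, 45.2 and 41.7 TPM after treatment. Its groups did not overlap, as for 67.5% of all tested genes. HMOX1, heme oxygenase 1, went from 49.9 ± 0.98 to 866 ± 7.77 TPM (adjusted p = 4.2e-14).

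Calcium and phosphate handling genes, the classical field of stanniocalcin action, were called higher in 12 and lower in 4 of 23 tested, or 17 and 1 on the TPM scale. That TPM split became 10 and 3 without mitochondrial genes. The list median was 0.16. VDR, the vitamin D receptor, went from 1.22 ± 0.21 to 4.70 ± 0.49 TPM (1.70 ± 0.11, adjusted p = 9.2e-09). CALR, the calcium-binding chaperone calreticulin, rose by 0.62 ± 0.061, and ORAI1, the channel that STIM1 opens, by 0.57 ± 0.072 (adjusted p = 5.5e-07 and 7.7e-06). SLC20A1, the phosphate importer PiT-1, rose by 0.33 ± 0.062 (adjusted p = 0.00032). STIM2, the second calcium sensor, was at -0.09 ± 0.062 (adjusted p = 0.242) and was called higher on the TPM scale, at 0.33. ATP2B4, a calcium pump of the plasma membrane, fell by 1.17 ± 0.063 (adjusted p = 1.2e-09). Another such pump, ATP2B1, rose by 1.15 ± 0.10, from 32.3 ± 3.41 to 72.5 ± 11.5 TPM (adjusted p = 1.4e-05). MCU, the mitochondrial calcium uniporter, fell by 0.36 ± 0.064 (adjusted p = 0.00018), a call that was lost on the TPM scale (adjusted p = 0.382). Of the 37 listed genes 14 were not tested, among them the epithelial calcium channels TRPV5 and TRPV6, which had at most 1 count in any library.

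STC1 is known in endometrium as a secreted product of stromal cells that decidualize, the change that progesterone and cyclic AMP bring about before pregnancy. The main decidual products were at or near 0 here: PRL, prolactin, had 2, 3 and 2 counts in vehicle and 0, 1 and 0 after treatment, and IGFBP1 had 1 count in vehicle replicate 3 and 0 elsewhere. Of 20 tested genes of the decidualization list 4 were called higher and 10 lower, or 6 and 6 on the TPM scale and 6 and 9 with library size scaling. On TPM without mitochondrial genes the split was 4 and 7. The list median was -0.39. HOXA10, a homeobox factor of uterine identity, had 29.04, 32.4 and 32.5 TPM in vehicle and 15.7, 12.4 and 12.9 TPM after treatment (-1.53 ± 0.10, adjusted p = 1.6e-07). Its paralogue HOXA11 was not called, at -0.050 ± 0.068 (adjusted p = 0.546). The gap junction gene GJA1 fell by 1.12 ± 0.073 and PRKAR2B, a regulatory subunit of the cyclic AMP kinase, by 0.88 ± 0.077 (adjusted p = 2.5e-08 and 1.7e-07). FOXO1, a transcription factor of decidual cells, fell by 0.60 ± 0.13 (adjusted p = 0.00128, and 0.137 on the TPM scale). PGR, the progesterone receptor, was scarce at 0.157 ± 0.035 TPM in vehicle and stood at -0.51 ± 0.27 (adjusted p = 0.118, and 0.0294 without frankincense replicate 3). The higher calls named by rule were of low genes or small: ESR1, an oestrogen receptor, went from 0.117 ± 0.040 to 0.33 ± 0.082 TPM (adjusted p = 0.00362), and the cytokine IL15 and the cochaperone FKBP5 were at 0.32 ± 0.096 and 0.36 ± 0.12 (adjusted p = 0.0103 and 0.0165). ESR2, a second oestrogen receptor, was also low and was called lower, from 0.18 ± 0.03 to 0.083 ± 0.0058 TPM (adjusted p = 0.0032). The call of IL15 was lost without vehicle replicate 1 (adjusted p = 0.0546), and that of FKBP5 without vehicle replicate 3 or frankincense replicate 1 (adjusted p = 0.0526 and 0.0858). Both calls were also lost with DESeq2 (adjusted p = 0.0623 and 0.0798), and that of IL15 on the TPM scale with and without mitochondrial genes (adjusted p = 0.0539 and 0.256). Without vehicle replicate 1 or frankincense replicate 1 only 2 members of this list were called higher.

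The genes whose profile over the 6 libraries was nearest to each stanniocalcin were found by the root-mean-square distance of log2 CPM, centred on each gene's mean, among 11241 coding genes with at least 5 CPM in the higher group. For STC2 the 5 nearest lay within 0.092, against a median of 1.09 over all candidates. SRPRB, a subunit of the receptor that docks ribosomes at the endoplasmic reticulum, had 18.5, 19.9 and 21.6 TPM in vehicle and 91.9, 94.2 and 131.9 TPM after treatment, at a distance of 0.046. NPAS2, a transcription factor of the circadian clock, and IL1A, the cytokine interleukin-1-alpha, followed at 0.068 and 0.076. NPAS2 went from 3.44 ± 0.50 to 16.6 ± 1.98 TPM, and IL1A from 0.97 TPM in each vehicle library to 5.86 ± 0.84 TPM. The last were CYP51A1, an enzyme of cholesterol synthesis (0.080), and SEC61A1, the channel of the protein translocon (0.092), which rose 5.04-fold and 4.16-fold.

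For STC1 the nearest genes were less close, at 0.52 to 0.78, against a median of 2.46 over all candidates. STC1 also varied more within groups, with a pooled SD of log2 CPM of 0.48 against 0.0925 for STC2. METTL7A, a methyltransferase-like gene of lipid droplets, had 6.06, 5.53 and 5.52 TPM in vehicle and 0.28, 0.28 and 0.14 TPM after treatment. The tetraspanin TSPAN8 went from 12.2 ± 0.41 to 0.807 ± 0.11 TPM. Next were SUCNR1, the succinate receptor, CCL2, the monocyte chemokine, and TRIL, a cofactor of toll-like receptors, at distances of 0.62, 0.68 and 0.78. Among these, CCL2 alone stayed above 4 TPM in every treated library. Likeness here mostly records the size of the difference between the groups, and the names depend on its measure: with Pearson's correlation over the 6 libraries 0 of the 5 were shared for STC1 and 1 of the 5 for STC2, and the same numbers were shared with log2(TPM + 1).

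**Figure D4:**
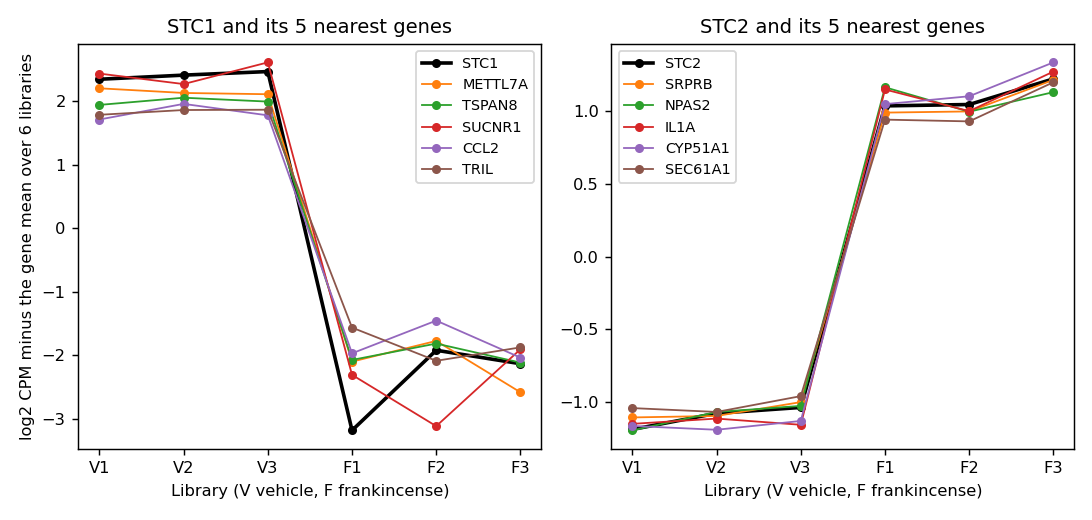
log2 CPM of STC1 (left) and STC2 (right), in black, and of the 5 genes nearest to each, in colour, minus each gene's mean over the 6 libraries (V vehicle, F frankincense, with the replicate number). The STC2 lines nearly coincide, within a distance of 0.092, while the STC1 lines lie further apart in the treated libraries, where STC1 itself is lowest at F1, which held 5 of its reads.

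The genes around STC1 and STC2 were read from the same fit. Since the pair was chosen by its own change, the size of that change beside the neighbours' is a description. Among genes that start within 1 Mb, 15 of 41 near STC1 were tested. Of these, 4 were called higher and 5 lower, beside 31.9% and 31% of all tested genes. The split was 5 and 2 on the TPM scale and 4 and 5 there without mitochondrial genes. The log2 changes of the 15 ran from -0.97 to 0.79 around a median of -0.018. All 15 lie on the same side of STC1. The largest rises were those of the death receptor genes TNFRSF10A and TNFRSF10B, at 0.79 ± 0.11 and 0.56 ± 0.068 (adjusted p = 1.4e-05 and 4.7e-06). The largest falls were those of an intergenic noncoding RNA, ENSG00000284948, at -0.97 ± 0.21, and of LOXL2-AS1 at -0.95 ± 0.29 (adjusted p = 0.00101 and 0.0111). LOXL2-AS1 is named as antisense to LOXL2, so with no stated strand its reads may belong to either gene, and its call was lost without vehicle replicate 1, with DESeq2 and on the TPM scale (adjusted p = 0.0739, 0.0556 and 0.0955).

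Near STC2, 11 of 50 genes were tested, of which 3 were called higher and 3 lower, beside 31.9% and 31% of all tested genes. The split was 4 and 2 on the TPM scale, 3 and 3 there without mitochondrial genes, and 5 and 3 with library size scaling. The 11 genes had a median log2 change of 0.083 and a range of -1.56 to 0.999. CPEB4, which controls translation through poly(A) tails, at 559 kb, and BOD1, a chromosome alignment factor, at 287 kb, rose by 0.999 ± 0.15 and 0.94 ± 0.066 (adjusted p = 4.4e-05 and 1.7e-08). NEURL1B, a ubiquitin ligase, fell by 1.56 ± 0.097, and ATP6V0E1, a subunit of the lysosomal proton pump, by 0.57 ± 0.055 (adjusted p = 4.9e-09 and 4.2e-07).

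**Figure D5:**
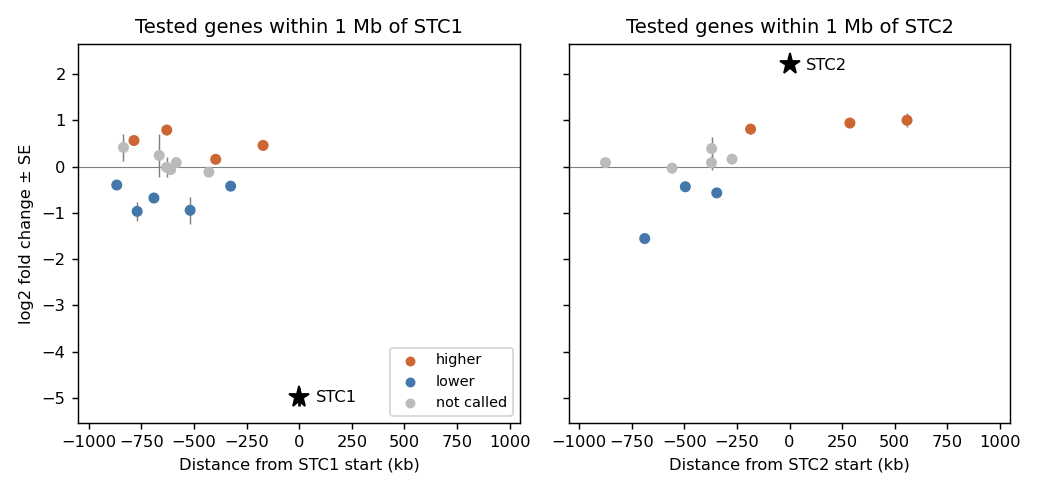
log2 fold change with its SE of each tested gene that starts within 1 Mb of STC1 (left) or STC2 (right), against the distance of its start in kb, coloured by its edgeR call. The neighbours range from -0.97 to 0.79 for STC1 and from -1.56 to 0.999 for STC2; stars show STC1 and STC2 themselves, which were chosen by their change.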

How the data were processed

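Alignment with STAR and counting with RSEM 1.3.1 on GRCh38 are named per the submitters' processing notes. Which annotation, STAR version or filter on reads went with them is not given in the sources used here. Each TruSeq library took 1.5 ug of total RNA, per the labels' protocols, and strand is not stated. The deposited expected counts are estimates by RSEM for each gene, per the file headers, the deposited TPM and FPKM values are scaled per effective length and library, and length and effective length are means weighted by transcript abundance. Symbols were found for 60597 of 60616 identifiers, and positions come from GENCODE 29.

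Expected counts, rounded to whole numbers, went into edgeR 4.0.16 under R 4.3.3 (filterByExpr filter, TMM, robust legacy glmQLFit, glmQLFTest, two-sided, Benjamini-Hochberg adjustment over 16719 genes, calls at adjusted p under 0.05), which was tested on simulated data. An SE is the log2 change divided by the square root of F. TPM means ± SD are over 3 libraries. CPM values use TMM scaling, with a prior count of 2 on the log2 scale. FPKM served only as an alternative for the ratio of STC1 to STC2. Alternatives used DESeq2 1.42.0 and limma 3.58.1 on log2(TPM + 1), other scalings and filters, a replicate block, and each library left out in turn.

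The members and the lists were chosen with earlier results of these data known. Named genes are STC1 and STC2, the 5 nearest to each, the 3 called members of each list with the smallest adjusted p in each direction, a set of genes given whatever their result, and the 2 largest called rises and falls among neighbours. CDH1, KRT5, IGF1, IGF2, TRPV5, TRPV6 and other genes at 0 were named after their values were seen. So were ATP2B1, IRS1, HOXA11 and ESR2, listed paralogues of genes named by the rule, which are not among the genes followed under the alternatives. Promoter sequences are RefSeq's (GRCh38.p14), with 1 of the 2 genes matched. Some genes that the rule for named genes covers are not reported here.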

Additional observations from a re-analysis of the deposited data

How the results depend on the processing

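STC1 stayed lower and STC2 higher under all 14 alternative fits, with log2 fold changes of -5.26 to -4.62 and 2.16 to 2.24 when 1 library was left out. On log2(TPM + 1), where the pseudocount compresses low levels, the changes were -2.19 and 2.69, and -2.53 and 2.52 without mitochondrial genes. The change of their log2 ratio ranged from -7.99 to -7.23 with 1 library left out. Genes called lower numbered 2474 on the TPM scale against 5177, and 9377 to 11031 genes were called in all when 1 library was left out. The cause of the following moves was not tested. On the TPM scale the hypoxia list had 14 higher and 10 lower, and 3 IGF axis genes, 1 calcium and phosphate gene, 6 decidualization genes and 2 neighbours of STC1 were lower. On that scale without mitochondrial genes 3778 genes were lower in all, and the hypoxia list had 9 higher and 13 lower. There 6 IGF axis genes, 3 calcium and phosphate genes, 7 decidualization genes and 5 neighbours of STC1 were lower. Lower calls in the PERK and ATF4 list, 2 in the main analysis, numbered 1 with library size scaling, with no filter and with DESeq2, 4 with a filter at 5 CPM, 0 on both TPM scales, and 1 to 2 with a library left out. Higher calls in the decidualization list, 4 in the main analysis, numbered 2 with DESeq2 and 2 to 6 with a library left out. The filter at 5 CPM left 3 lower neighbours of STC1, and library size scaling gave 5 higher neighbours of STC2.

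Of 820 values of 59 named genes under these alternatives, 786 kept their direction and side of the threshold, 29 lost the call, 1 gained it and 4 reversed. The reversals were EIF2AK2 (0.34, and 0.17 without mitochondrial genes), EIF2AK4 (0.061) and STIM2 (0.33), all on the TPM scale. Without mitochondrial genes on that scale, the calls of IGF1R, IGFBP5, MCU, FOXO1 and LOXL2-AS1 were kept, and STIM2 was not called. With the replicate number as a block, 10591 genes were called, STC1 was at -4.97 and STC2 at 2.21. Samples with the same number correlated at 0.050, 0.101 and 0.035 in their deviations from the group means, each best with its own number, a hint from the data and not from the design, so the block was not used. Depth limits STC1 after treatment, which rests on 31 reads.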
